A study of Mus musculus with 4 samples.

Results

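The tubulin isotypes followed here are 10 genes, of 16449 in the deposited gene table: the alpha-tubulins Tuba1a, Tuba1b and Tuba1c, the beta-tubulins Tubb2a, Tubb2b, Tubb3, Tubb4b, Tubb5 and Tubb6, and the gamma-tubulin Tubg1. They were chosen by symbol, and each Ensembl identifier in the table was matched to its symbol through the gene annotation. The counts came from Nanopore long-read sequencing of poly(A)-enriched RNA from the dorsal and medial pallium, the wall of the embryonic forebrain that builds the neocortex and hippocampus, dissected from mouse embryos at E11.5 (E, embryonic day). The comparison asks how RNA levels differ when Tut1, which encodes the enzyme that adds uridines to the end of the spliceosomal U6 snRNA, is deleted in neural stem cells. There were 2 libraries from wild-type (WT) embryos, which the study lists as carrying the floxed Tut1 allele on both chromosomes (Tut1 f/f) without Cre, and 2 labelled Tut1 knockout (Tut1 f/f;Emx1-Cre; KO-labelled below), in which Emx1-Cre acts in the Emx1 lineage, the stem cells of this tissue and their progeny. Blood, vascular, meningeal and immigrant cells in the dissected tissue do not derive from that lineage. The number of embryos behind a library is not stated, so the p-values measure the spread between these libraries. That spread may be technical within the KO-labelled pair, whereas the WT libraries differed in sex (below).

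Microtubules are hollow polymers of heterodimers of alpha- and beta-tubulin, and gamma-tubulin, in a ring-shaped complex, seeds them at centrosomes and along other microtubules. Dividing progenitors of the pallium build mitotic spindles from them, and young neurons build the tracks and the scaffold of their axons and dendrites. Mammals encode several near-identical isotypes of each subunit that differ chiefly in their charged C-terminal tails, and mutations of TUBA1A, TUBB2B, TUBB3 and TUBB5 (TUBB) cause malformations of the human cortex. Cells also adjust tubulin mRNA to the pool of free subunits, a feedback that reads the first residues of a nascent tubulin chain on the ribosome.

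The coding sequences show how alike the members are. The parts of their transcripts outside the coding sequence were not compared, so what a long read can tell apart was not tested. In the GENCODE M21 annotation of GRCm38, Tuba1a (chromosome 15, 98949837 to 98953703, minus strand) and Tuba1b (98931425 to 98934565, minus strand) lie next to each other, and Tuba1c (99029891 to 99038110, plus strand) lies beyond them. Their coding sequences were 98.3% identical between Tuba1a and Tuba1b, 97.9% between Tuba1b and Tuba1c and 97.1% between Tuba1a and Tuba1c. Among the beta-tubulins, the neighbours Tubb2a (chromosome 13, 34074274 to 34078007) and Tubb2b (34126748 to 34130466) were 96.5% identical, and the other beta pairs ranged from 80.2% to 85.9%. An alpha and a beta member shared between 54.8% and 57.1% of bases, and Tubg1 shared between 51.6% and 53.7% with any other member. The first 24 coding bases are shown for 3 beta members, with the opening 4 codons, which encode the residues that the feedback reads, in capitals:
Tubb2b: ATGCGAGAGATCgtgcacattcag
Tubb3: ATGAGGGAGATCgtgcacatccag
Tubb5: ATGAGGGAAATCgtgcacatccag
The last 72 coding bases cover the acidic tail and are shown for 5 beta members because tubulin isotypes are known to differ most there. Codons for glutamate, the residue to which enzymes add chains of glutamate, are in capitals:
Tubb2a: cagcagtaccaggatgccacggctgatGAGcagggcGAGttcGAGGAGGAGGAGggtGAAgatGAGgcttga
Tubb2b: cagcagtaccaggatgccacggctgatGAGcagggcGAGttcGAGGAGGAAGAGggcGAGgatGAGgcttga
Tubb3: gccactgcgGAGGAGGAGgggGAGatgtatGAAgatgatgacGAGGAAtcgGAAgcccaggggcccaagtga
Tubb4b: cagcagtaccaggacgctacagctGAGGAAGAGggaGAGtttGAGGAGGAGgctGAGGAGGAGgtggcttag
Tubb5: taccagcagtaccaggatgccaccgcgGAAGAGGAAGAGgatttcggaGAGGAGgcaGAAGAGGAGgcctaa
Of the 24 codons shown, 10 encoded glutamate in Tubb4b, 9 in Tubb5 and 8 in Tubb2a, Tubb2b and Tubb3. The genes shown end on a codon for alanine before the stop or, in Tubb3, for lysine.

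The table also has rows that resemble members without being among them. At a minimum of 90% identity over 50% of the row's transcript, 8 such rows were found. Gm3226 (chromosome 13, 112593743 to 112595084, minus strand), Gm17383 and Gm3756 (chromosome 9, 31935446 to 31936800, minus strand) are annotated as processed pseudogenes and were each 98.67% identical to Tuba1b. Gm14150 and Gm15599, 98.6% and 91.08% identical to Tuba1b, are processed pseudogenes with 0 to 3 counts in a library. Gm49450 (chromosome 15, 98932137 to 98953551, minus strand) is annotated as a protein-coding gene that runs from Tuba1a into Tuba1b, and of its 899 exonic bases 473 lie in Tuba1a exons and 426 in Tuba1b exons. The remaining rows were Tubb2a-ps2, nearest to Tubb2b, and Tubg2, nearest to Tubg1. Over the 1356 coding bases of Tuba1b, Tuba1a differed by 23 substitutions with 0 bases missing, Tuba1c by 22 with 6 bases missing, Gm3226 by 11 with 14 missing and Gm3756 by 17 with 1 missing. How reads that fit several of these rows were assigned is not stated, so a value of a single alpha row is uncertain and sums are given beside it.

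Total counts per library ranged from 305642 to 397150, and the tested genes had a median of 19 to 25 counts in a library. Levels are given as CPM, counts scaled to library size with TMM factors, and a difference is called at an adjusted p below 0.05 in the quasi-likelihood test of edgeR over 5878 genes. Over all these genes 2.06% were called, 1.40% as higher and 0.663% as lower in the KO-labelled libraries. The whole-gene count of Tut1 was 6 and 11 in WT, against 29 and 25 in the KO-labelled libraries, a rise of 1.71 ± 0.40 on the log2 scale (adjusted p in edgeR = 0.0113). Cre removes only an exon of Tut1, so this count does not check the genotype and every direction here follows the labels. WT replicate 1 had 64 counts of the female-specific RNA Xist and 0 of 4 Y-linked genes, and the other 3 libraries had 0 of Xist and 41 to 78 of the Y-linked genes, so sex was not balanced between the groups. The WT libraries thus came from different embryos, and the spread between them includes a difference of sex.

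Of the 10 tubulin genes, 7 had enough counts to be tested. Tuba1a was called higher in the KO-labelled libraries in edgeR and limma-voom but not in DESeq2, against a background of 1.40% of all tested genes in edgeR. None was called lower by any of these tools, against 0.663% in edgeR. At an unadjusted p below 0.05 in edgeR there were 2 of the 7, Tuba1a and Tuba1b, whose values had opposite signs, where 14.2% of all tested genes lay below it. The log2 fold changes of the 7 were positive for 4 and negative for 3, with a median of 0.21. Over all tested genes 48.4% were positive and the median was -0.01. Levels of the groups did not overlap for 4 of the 7, Tuba1a, Tuba1b, Tubb2b and Tubb4b, where 43.1% of all tested genes did not overlap.

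**Figure D1:**
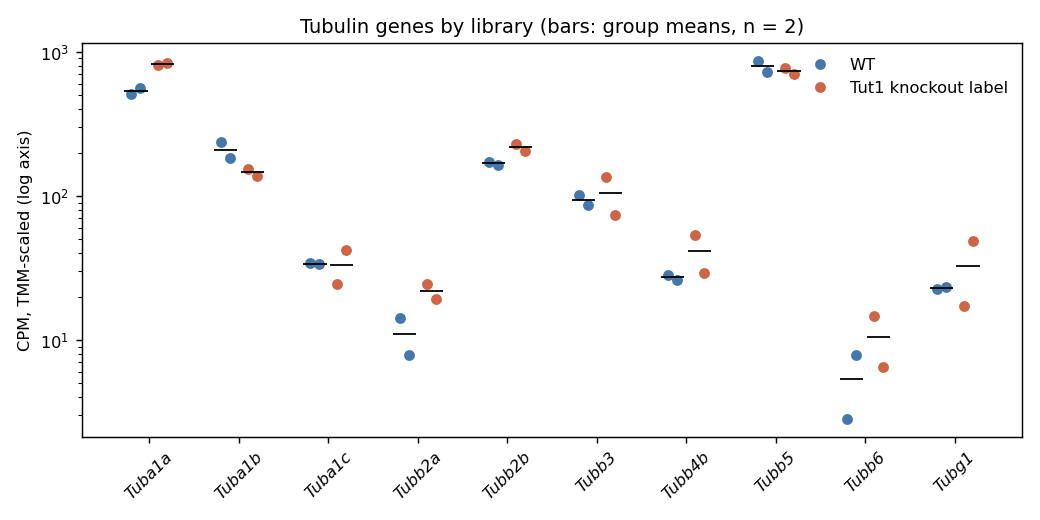
TMM-scaled CPM (log axis) of the 10 tubulin genes in each library, with blue points for the 2 WT libraries, orange points for the 2 KO-labelled libraries and bars for the group means. Tuba1a lies between 507 and 562 CPM in WT and between 813 and 831 in the KO-labelled libraries, whereas the points of Tubb5, Tubb3 and Tuba1c overlap between the groups.

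Ordered by level per kilobase of transcript, averaged over the 4 libraries, Tuba1a stood first at 376 CPM per kb and Tubb5 second at 290, and the ranges of these genes over libraries overlapped. In WT alone the order of these 2 was the other way, with Tubb5 at 299.96 and Tuba1a at 296.4 CPM per kb, against 279.3 and 456 in the KO-labelled libraries. In CPM not divided by length, Tubb5 was above Tuba1a in both WT libraries and below it in both KO-labelled libraries. Tuba1b at 102 and Tubb2b at 88.6 CPM per kb followed, overlapped each other and lay below every library's value for Tubb5. Tubb3 at 53.1 CPM per kb was separate from the genes on either side. Below it came Tubb4b at 21.5, Tuba1c at 16.9, Tubg1 at 15.5, Tubb2a at 10.2 and Tubb6 at 4.52 CPM per kb, with ranges that overlapped between each of these neighbours. The pallium at E11.5 thus held mainly Tuba1a and Tubb5 among the members' own rows. Dividing by length is a convention for short reads, and whether a long-read count grows with transcript length was not tested.

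Tuba1a, the main alpha-tubulin of young neurons, had counts of 179 and 216 in the WT libraries and of 332 and 258 in the KO-labelled libraries. Its level was 507 and 562 CPM in WT, against 813 and 831 CPM in the KO-labelled libraries, so that both of the latter lay above both of the former. The means were 534 ± 38.9 and 822 ± 13.0 CPM (SD, n = 2 each), a 1.54-fold difference. In edgeR the log2 fold change was 0.63 ± 0.15 (SE, adjusted p = 0.0117). The rise kept its direction in every alternative run, but the adjusted p was 0.0954 in DESeq2, 0.0886 after thinning to equal total counts, and between 0.0518 and 0.218 when any library was left out. Without the female library, WT replicate 1, the log2 fold change was 0.55 ± 0.21 (adjusted p in edgeR = 0.218).

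Tuba1b, an alpha-tubulin used in many tissues, had lower values. Its own row had 83 and 70 counts in WT, against 63 and 43 in the KO-labelled libraries, or 235 and 182 against 154 and 139 CPM. Both KO-labelled libraries lay below both WT libraries, with means of 209 ± 37.4 and 146 ± 11.1 CPM (SD, n = 2 each), yet the log2 fold change of -0.49 ± 0.23 did not pass the test (adjusted p in edgeR = 0.332). It was -0.30 without WT replicate 1 and -0.67 without WT replicate 2. Tuba1c, the third alpha member, had 12 and 13 counts in WT, against 10 and 13 in the KO-labelled libraries, a log2 fold change of -0.06 ± 0.44 (adjusted p in edgeR = 0.978). The value of Tuba1c rests on so few counts that a difference could not be resolved.

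Most counts of Tuba1b-like sequence sat on pseudogene rows and not on Tuba1b. Gm3226 had 264, 274, 234 and 259 counts in WT 1, WT 2 and KO-labelled libraries 1 and 2, and Gm17383 (chromosome 18, 82338462 to 82339816, plus strand) had 226, 207, 191 and 185. In every library each of these rows exceeded the count of Tuba1b. Tuba1b itself held 13.9% and 12.03% of the summed counts of Tuba1b and its 5 pseudogene rows in WT, and 12.4% and 8.46% in the KO-labelled libraries. The exact 95% binomial intervals were 11.2 to 16.9, 9.50 to 14.95, 9.62 to 15.5 and 6.19 to 11.2%. These intervals cover counting error only.

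None of the 3 pseudogene rows with enough counts to be tested was called, and Gm14150 and Gm15599 were not tested. The log2 fold change was -0.05 ± 0.16 for Gm3226 (adjusted p in edgeR = 0.929), -0.14 ± 0.16 for Gm17383 (adjusted p = 0.790) and -0.33 ± 0.34 for Gm3756 (adjusted p = 0.741), which had 23 and 28 counts in WT, against 21 and 18 in the KO-labelled libraries. Tuba1b taken with its 5 pseudogene rows gave 1693 and 1514 CPM in WT, against 1249 and 1637 in the KO-labelled libraries, means of 1604 ± 127 and 1443 ± 275, so the groups overlapped. In a fit with these rows added to their nearest member, chosen after seeing the data, the log2 fold change of Tuba1b was -0.14 ± 0.13 (adjusted p in edgeR = 0.687). The lower value of the Tuba1b row therefore shrank once the near-identical rows were counted with it.

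Gm49450, the row shared by Tuba1a and Tuba1b, had 80 and 94 counts in WT, against 132 and 111 in the KO-labelled libraries. That is 227 and 245 against 323 and 358 CPM, with both KO-labelled libraries above both WT libraries, and a log2 fold change of 0.54 ± 0.19 that did not pass the test (adjusted p in edgeR = 0.146). Whether its reads came from Tuba1a, from Tuba1b or from a joint transcript was not tested. With Gm49450 added to Tuba1a, that gene stayed called at 0.61 ± 0.13 (adjusted p in edgeR = 0.00760). With Gm49450 added to Tuba1b instead, Tuba1a was at 0.63 ± 0.15 (adjusted p in edgeR = 0.0121) and Tuba1b, with its pseudogene rows, at -0.04 ± 0.12 (adjusted p = 0.937). On the opposite strand of Tuba1b lies Gm41396, with 4 to 9 counts in a library.

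**Figure D2:**
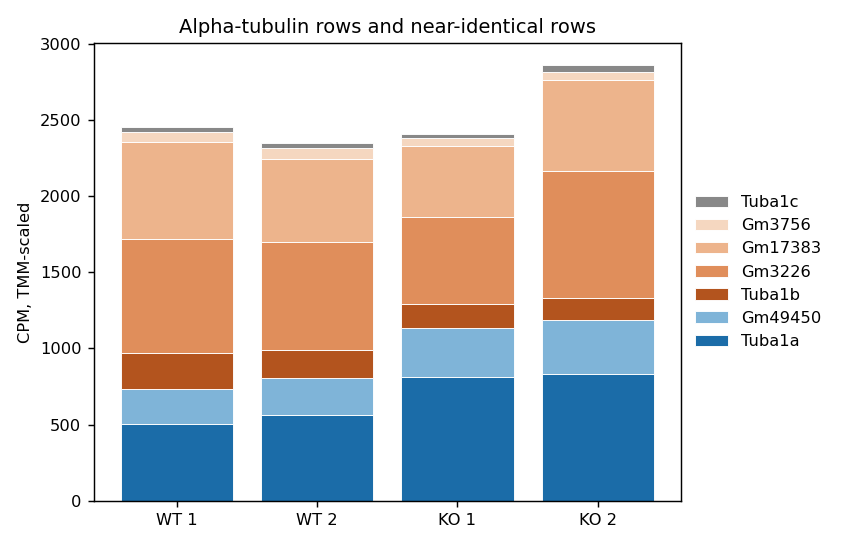
Stacked TMM-scaled CPM of the alpha-tubulin rows and of the near-identical rows with 10 or more counts, 1 bar for each library (KO, labelled Tut1 knockout). Tuba1a (dark blue) and Gm49450 (light blue) are taller in both KO-labelled libraries, the Tuba1b row (dark orange) is the smaller part of the orange Tuba1b-like stack in all 4 libraries, and the sums with near-identical rows, from 2354 to 2868 CPM, overlap between the groups.

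Summed over their own rows, the 3 alpha members had 274 and 299 counts in WT, against 405 and 314 in the KO-labelled libraries. The sum was 776 and 778 CPM in WT, against 992 and 1012 CPM in the KO-labelled libraries, means of 777 ± 1.37 and 1002 ± 14.2 (SD, n = 2 each) and a 1.29-fold difference without overlap. Counting error on sums of 274 to 405 counts is larger than these SDs, so they understate the uncertainty. When the 6 near-identical alpha rows were included, the sum became 2461 and 2354 CPM in WT, against 2410 and 2868 in the KO-labelled libraries, and the groups overlapped with a log2 ratio of 0.13. The near-identical rows held 68.5% and 67.0% of these counts in WT, against 58.8% and 64.7% in the KO-labelled libraries. Tuba1a, counted on its own row, was 20.6% and 23.9% of this wider alpha sum in WT, against 33.7% and 29.0% in the KO-labelled libraries. The share of Tuba1a was thus higher in both KO-labelled libraries, but 2 against 2 libraries cannot give an exact permutation p below 0.333, which was its value here. No test was run on the sums.

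Tubb5, the most abundant beta-tubulin here and a gene of dividing progenitors as well as neurons, had 304 and 280 counts in WT, against 316 and 219 in the KO-labelled libraries. Its level was 861 and 728 CPM in WT, against 774 and 706 in the KO-labelled libraries, and the groups overlapped. The log2 fold change was -0.09 ± 0.15 (adjusted p in edgeR = 0.865). Without WT replicate 1 its sign turned, to 0.03.

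Tubb2b, a beta-tubulin of progenitors and migrating neurons, had 61 and 63 counts in WT, against 94 and 64 in the KO-labelled libraries. Its level was 173 and 164 CPM against 230 and 206 CPM, both KO-labelled libraries above both WT libraries. The log2 fold change of 0.39 ± 0.22 did not pass the test (adjusted p in edgeR = 0.443). Its neighbour Tubb2a had 5 and 3 counts in WT, against 10 and 6 in the KO-labelled libraries and was too low to be tested, with a log2 fold change of 1.02 ± 0.63 in a fit without the filter (adjusted p in edgeR = 0.729).

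Tubb3, the beta-tubulin used as a marker of newborn neurons, had 36 and 33 counts in WT, against 55 and 23 in the KO-labelled libraries. At 102 and 85.8 CPM in WT, against 135 and 74.1 CPM in the KO-labelled libraries, the latter lay on both sides of the former. The means of 93.9 ± 11.4 and 104 ± 42.8 CPM (SD, n = 2 each) differed by less than this spread, and the log2 fold change was 0.21 ± 0.29 (adjusted p in edgeR = 0.836). Its direction depended on a single library, since without the KO-labelled library 1 the log2 fold change was -0.33 and without the KO-labelled library 2 it was 0.54. Of the neuron markers, the microtubule-binding protein genes Mapt, with a log2 fold change of 1.83 ± 0.22 (adjusted p in edgeR = 8.85e-07), and Dcx, with 1.17 ± 0.24 (adjusted p = 0.00461), were called higher in the same libraries. Whether Tubb3 differed from them in response was not tested.

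Tubb4b, a broadly used beta-tubulin, had 10 and 10 counts in WT, against 22 and 9 in the KO-labelled libraries, and its log2 fold change was 0.67 ± 0.44 (adjusted p in edgeR = 0.546). Most of that value came from 1 library, since it was 0.10 without the KO-labelled library 1. Tubb6 had 1 and 3 counts in WT, against 6 and 2 in the KO-labelled libraries and was not tested. In a fit without the filter it was at 1.00 ± 0.92 (adjusted p in edgeR = 0.862).

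The 6 beta members together had 417 and 392 counts in WT, against 503 and 323 in the KO-labelled libraries. Their sum was 1181 and 1020 CPM in WT, against 1232 and 1041 CPM in the KO-labelled libraries, means of 1100 ± 114 and 1136 ± 135 (SD, n = 2 each), which overlapped, with a log2 ratio of 0.05. The alpha and beta members together gave 1957 and 1798 CPM in WT, against 2224 and 2053 in the KO-labelled libraries, a 1.14-fold difference without overlap. When near-identical rows were included this sum was 3656 and 3379 CPM against 3644 and 3919 CPM, and the groups overlapped.

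**Figure D3:**
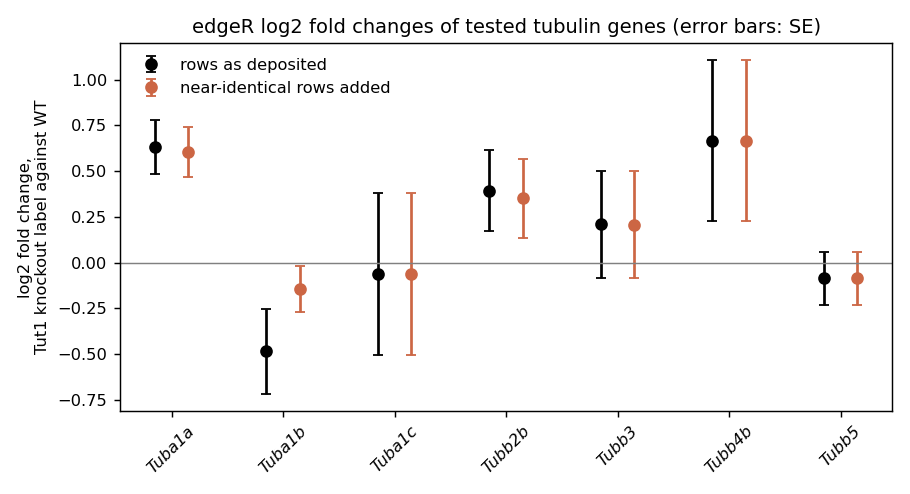
Log2 fold changes from edgeR, KO-labelled libraries against WT, of the 7 tested tubulin genes, with bars for 1 SE and the line at 0 for no difference. Black points use the rows as deposited and orange points the fit in which near-identical rows were added to the nearest member. Tuba1a keeps a value of about 0.6 in both, and Tuba1b moves from -0.49 to -0.14.

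Within the beta family a share does not depend on how libraries were scaled. Tubb5 held 72.9% and 71.4% of beta counts in WT, against 62.8% and 67.8% in the KO-labelled libraries, lower in both, a difference in mean share of -6.85 percentage points that was -4.36 without KO-labelled library 1 and -9.34 without KO-labelled library 2. Tubb2b held 14.6% and 16.1% in WT, against 18.7% and 19.8% in the KO-labelled libraries, higher in both by 3.90 points on average. Tubb3 held 8.63% and 8.42% in WT, against 10.9% and 7.12% in the KO-labelled libraries, on either side of WT. Tubb4b held 2.40% to 2.55% in WT and 2.79% to 4.37% in the KO-labelled libraries, Tubb2a 0.77% to 1.20% and 1.86% to 1.99%, and Tubb6 0.24% to 0.77% and 0.62% to 1.19%. In a two-sided exact permutation test the p-value was 0.333 for Tubb5, Tubb2b, Tubb4b and Tubb2a, the smallest that 2 against 2 libraries allow, 0.667 for Tubb6 and 1.00 for Tubb3. Adjusted over the 6 shares by Benjamini-Hochberg these exact permutation values became 0.500, 0.800 and 1.00. The exact 95% binomial intervals for Tubb5 were 68.4 to 77.1% and 66.7 to 75.9% in WT and 58.4 to 67.1% and 62.4 to 72.9% in the KO-labelled libraries, so KO-labelled library 2 overlapped both WT libraries and KO-labelled library 1 overlapped WT 2 at the edge. These intervals cover counting error within a library only and do not test the groups.

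**Figure D4:**
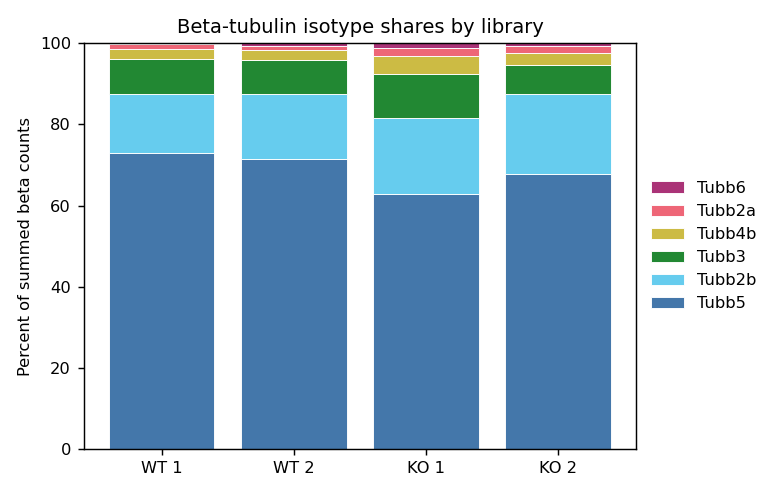
Share of each beta-tubulin gene, in percent of the summed counts of the 6 beta members, in the 2 WT libraries and the 2 KO-labelled libraries (KO). Tubb5 fills 62.8% to 72.9% of each bar and Tubb2b 14.6% to 19.8%, and the Tubb3 segment is widest in KO 1 and narrowest in KO 2.

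Tubg1, the gamma-tubulin of the nucleating ring, had 8 and 9 counts in WT, against 7 and 15 in the KO-labelled libraries, at 22.7 and 23.4 CPM against 17.1 and 48.3 CPM. It was too low to be tested and overlapped between the groups, with 0.44 ± 0.49 in a fit without the filter (adjusted p in edgeR = 0.862). Tubg2, its near-identical partner, had 0 counts in each library, which over 1456374 counts in all allows up to 2.06 CPM, for counting error only. Tubb1, the beta-tubulin of platelets, was also at 0 in each library.

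Of the other tubulin genes only Tubb4a had enough counts to be tested. Tubb4a, a beta-tubulin of the mature nervous system, had 4 and 5 counts in WT, against 11 and 13 in the KO-labelled libraries, a log2 fold change of 1.45 ± 0.57 (adjusted p in edgeR = 0.204). Tube1, the epsilon-tubulin of centrioles, had 19 and 9 counts in WT, against 8 and 4 in the KO-labelled libraries, and was at -1.16 ± 0.51 in a fit without the filter (adjusted p in edgeR = 0.418). Tuba4a had 6, 2, 8 and 2 counts over WT 1, WT 2 and KO-labelled libraries 1 and 2, Tubd1 had 2, 4, 2 and 3, and Tubb2a-ps2 had 5, 2, 1 and 3.

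No gene of the 6 pathway lists around tubulin was called in edgeR or DESeq2, and limma-voom called 1 of 51 tested, Stmn2, where it called 2.09% of all tested genes. At an unadjusted p below 0.05 there were 8 of 51 tested genes in edgeR, near the 14.2% of all genes, and 2 of 81 in DESeq2, where the share of all genes was 1.39%. For the signs given next, 48.4% of all tested genes had positive values. Of the 14 tubulin folding cofactor and prefoldin genes, which bring new subunits to and from the chaperonin, 9 were tested, 8 of them with positive values, with a median log2 fold change of 0.40. Pfdn1, a prefoldin subunit, was at 1.08 ± 0.40 (adjusted p = 0.170) and Pdcl3, a phosducin-like cofactor of the chaperonin, at 0.23 ± 0.15 (adjusted p = 0.517). All 8 genes of the TRiC chaperonin, in which tubulin folds, were tested, with a median of -0.03, Cct6a at -0.14 ± 0.12 (adjusted p = 0.682) and Cct4 at 0.30 ± 0.27 (adjusted p = 0.698). Of 18 genes of the gamma-tubulin ring and of augmin, which recruits that ring to spindle microtubules, 15 were tested, 10 with negative values, with a median of -0.30. The augmin genes Haus5 and Haus1 were at -0.93 ± 0.38 (adjusted p = 0.231) and -0.44 ± 0.21 (adjusted p = 0.330), and 3 of the 15 had an unadjusted p below 0.05, beside 14.2% of all tested genes.

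Enzymes that modify tubulin tails and lysines were mostly too low to be tested. Of 21 genes on this list, 19 had a row, 7 were tested and the median log2 fold change was 0.12. Atat1, which acetylates a lysine of alpha-tubulin, was at 0.34 ± 0.20 (adjusted p in edgeR = 0.481) and the glutamylase gene Ttll5 at -0.56 ± 0.40 (adjusted p = 0.592). Of 5 genes of the tubulin mRNA feedback, 4 were tested with a median of 0.17, among them Cnot10, part of the CCR4-NOT deadenylase, at -0.70 ± 0.29 (adjusted p in edgeR = 0.235) and Scaper, whose product recruits that deadenylase, at 0.55 ± 0.24 (adjusted p = 0.258). Of 18 factors that act on microtubule ends, 8 were tested with a median of 0.18. The stathmin genes Stmn2, at 1.21 ± 0.35 (adjusted p in edgeR = 0.0563), and Stmn1, at 0.62 ± 0.18 (adjusted p = 0.0576), which encode proteins that bind free tubulin, did not pass the threshold. Stmn2 is also on the neuron list.

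Some cell type markers were also called between the same labels as Tuba1a, and in bulk tissue fewer cells of a type and less RNA per cell cannot be told apart. By staining at E11.5, the study reported comparable numbers of Pax6-, Tbr2- and Dcx-positive cells in both genotypes. Its Ki67 and BrdU labelling of proliferating cells was comparable too. The 18 neuron markers summed to 1498 and 1441 CPM in WT, against 2329 and 2230 in the KO-labelled libraries, and of the 11 tested all had positive values and 2, Mapt and Dcx, were called higher. Over all tested genes 48.4% had positive values, 1.40% were called higher and 0.663% lower. The 12 radial glia and progenitor markers summed to 2336 and 2175 CPM against 1467 and 1634 CPM, with 3 positive and 7 negative values among the 10 tested and a median of -0.22. Lhx2, at 985 and 708 CPM in WT and 260 and 342 in the KO-labelled libraries, made up most of the difference in this sum and was the 1 called, at -1.49 ± 0.18 (adjusted p in edgeR = 6.48e-07). The 10 markers of dividing cells summed to 4128 and 3616 CPM against 2566 and 2942 CPM, all with negative values and 2 called lower, Mki67 at -0.74 ± 0.18 (adjusted p in edgeR = 0.0173) and Cenpf at -0.48 ± 0.12 (0.0287). At an unadjusted p below 0.05 in edgeR were 9 of 11 neuron, 2 of 10 radial glia and 4 of 10 dividing cell markers. In lists given below it was 4 of 4 microglia, 2 of 4 meningeal, 2 of 2 ventral and 2 of 5 red cell markers. The share over all tested genes was 14.2%. The microglia markers Cx3cr1, Aif1, Csf1r and Tyrobp were the 4 tested of 7 and all were called higher, with sums of 102 and 96.2 CPM in WT, against 360 and 322 in the KO-labelled libraries. Cx3cr1, Aif1 and Tyrobp had 1 to 9 counts in the WT libraries, below the filter's minimum count of 10. They were tested only because they were high in the KO-labelled libraries, so 4 called of 4 tested does not describe the whole list. The microglia markers left out by the filter had 0 to 4 counts in a library, without a common direction. Meningeal mesenchyme markers summed to 96.3 and 250 CPM against 438 and 296 CPM, with Col1a2 called higher among 4 tested, and ventral telencephalon markers to 14.2 and 67.6 CPM against 171 and 90.2 CPM, with Dlx1 called higher among 2 tested. Col1a2, with 3 and 7 counts in WT, and Dlx1, with 0 and 8, also passed the filter through the KO-labelled libraries alone, as could any marker low in WT. Intermediate progenitor markers gave 252 and 169 CPM against 284 and 325 CPM and endothelial markers 87.8 and 101 CPM against 157 and 158 CPM, with 0 called in edgeR among 3 and 2 tested, and 1 and 0 at an unadjusted p below 0.05, beside 14.2% of all tested genes. Of 5 primitive red cell markers tested, 3 had positive and 2 negative values, Hbb-bh1 was called lower, and the summed level overlapped between the groups. No marker with a row in the table was at 0 in every library. The part of these marker differences in the value of Tuba1a was not tested.

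**Figure D5:**
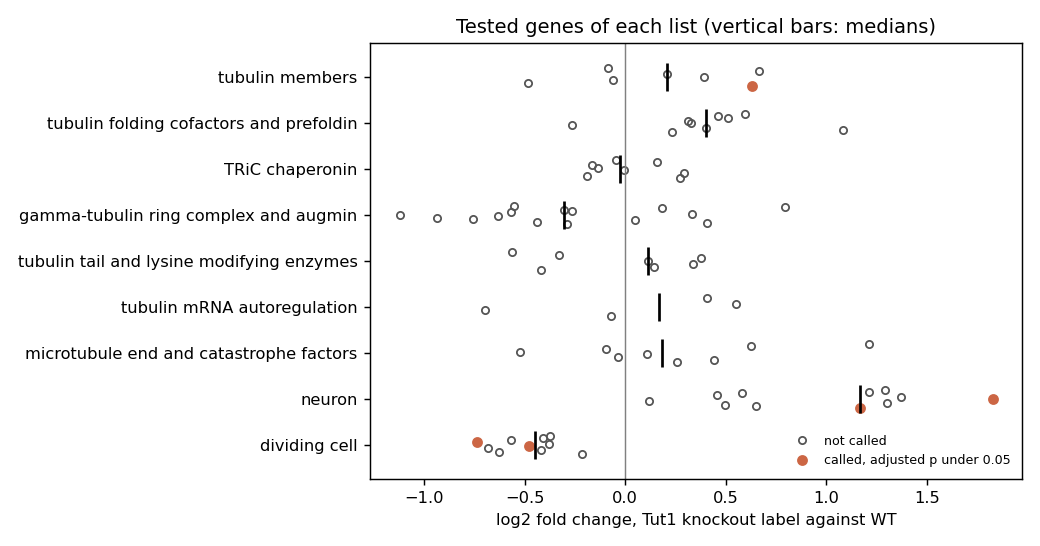
Log2 fold changes from edgeR, KO-labelled libraries against WT, of each tested gene on the tubulin, pathway, neuron and dividing cell lists, with filled points for genes called at an adjusted p below 0.05 and vertical bars for medians. Tuba1a is the called point of the tubulin members, the tubulin pathway lists have no called point, all neuron markers lie above 0 and all markers of dividing cells lie below it.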

How the data were processed

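Gene counts were measured in 4 libraries, 2 WT and 2 labelled Tut1 knockout, grouped by the sample labels. The values are raw counts per gene, deposited by the authors without normalization. According to the study's methods, the authors aligned poly(A)-enriched Nanopore reads to the Ensembl mouse transcriptome with minimap2 and processed them with FLAIR. The labels name GRCm38. How isoforms were summed, how reads that fit several genes were assigned and whether strand was used are not given in the sources used here.

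The members and gene lists were chosen with earlier results of these data known. GENCODE M21 matched 16436 of 16449 identifiers and supplied symbols, coordinates (1-based) and the sequences printed. Near-identical rows were found with BLAST+ 2.17.0.

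Differences were tested in R 4.3.3 with edgeR 4.0.16. The function filterByExpr (minimum count 10, minimum total 15) left 5878 genes, libraries were scaled by TMM and groups were compared by the two-sided quasi-likelihood test with no covariate and Benjamini-Hochberg adjustment over the tested genes. The biological coefficient of variation was 10.5%, with 2 residual and 37.5 prior degrees of freedom. An SE was taken as the size of the log2 fold change over the root of its F statistic. CPM are counts divided by the total of the whole table times the TMM factor. Shares were compared by exact permutation of the libraries, and their intervals are exact Clopper-Pearson. DESeq2, limma-voom and other scalings, filters and row sums were tried as alternatives. On simulated counts with 200 of 5878 genes changed, the test found 34.6% of 2-fold and 88% of 4-fold changes of this comparison.

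The 10 members and Tut1 were always named. From each pathway list the genes called were named, at most 4, or the 2 with the smallest p where none was called, from the marker lists the genes called, at most 4, and other tubulin rows from 10 counts. Gm14150, Gm15599, Gm41396, Tubb1 and Tubg2 were named after their values were seen. Alpha-tubulin sequences are not reported here.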

Additional observations from a re-analysis of the deposited data

How the results depend on the processing

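The count of tubulin members called higher was 1 with median-of-ratios factors, total counts, a filter of 10 counts in 2 libraries, no filter, limma-voom 3.58.1, the bias-adjusted quasi-likelihood, the replicate block and each way of adding pseudogene or near-identical rows. It was 0 in DESeq2 1.42.0, 0 after thinning to 305642 counts and between 0 and 0 when each library was left out, with the library that remained alone in its group taken to vary as the rest do. No member was called lower under any of these settings. With the replicate block, Tuba1a was at 0.64 (edgeR, adjusted p = 0.0296), and the block changed no call of a member. The deviations of same-numbered libraries from their group means correlated at -0.0614 over the tested genes, so the numbers were not taken to pair them. With 2 libraries in a group, the second pair only mirrors the first. Over all genes 121 were called, against 76 with the replicate block, 13 in DESeq2, 23 after thinning and 3, 35, 75 and 108 without KO-labelled library 1, KO-labelled library 2, WT 1 and WT 2. With total counts only, Tuba1c was at 0.000580 instead of -0.06. Leaving out 1 library turned the sign of Tuba1c (range -0.45 to 0.31), Tubb3 (-0.33 to 0.54), Tubb5 (-0.21 to 0.0275) and the beta sum (-0.0800 to 0.16). The log2 ratio of the alpha sum, 0.37, was 0.43 with total counts, 0.34 after thinning, 0.13 with near-identical rows and 0.35 to 0.38 when a library was left out, and that of alpha and beta together, 0.19, was 0.10 with near-identical rows and 0.13 to 0.25 when a library was left out. The difference in the Tubb2a share of 0.94 points was 1.46 after thinning and 0.65 with the pseudogene named for it added, and leaving out a library gave 0.72 to 1.16. The cause of these shifts was not tested, except that thinned and left-out fits hold fewer counts or libraries. The depth limits Tubb2a, Tubb6, Tubg1, Tuba1c and Tubb4b most, with 1 to 22 counts in a library.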
